A study of Homo sapiens with 8 samples.

Results

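The windows described here are all those of a FAIRE-seq table that lie on human chromosomes 20 and 22, 12045 of 256141 windows in all. Chromosome 20 held 3379 windows and chromosome 22 held 8666. They were chosen by chromosome alone, and each chromosome is shown apart.

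In FAIRE-seq, DNA left in the aqueous phase is sequenced after formaldehyde-fixed chromatin has been extracted with phenol and chloroform, which favors DNA with few nucleosomes. A lower signal can mean fewer cells open at a place or less opening per cell, which cannot be told apart. The cells were AIRE-Tet, HEK293 human embryonic kidney cells with a Tet-On transgene that expresses human AIRE when doxycycline is given. Untreated cells (Control) and cells given 1.5 µM doxycycline (Dox) were set against 2 groups that also had 24 h of 2 µM etoposide, 1 of them without AIRE (Etop) and 1 following 24 h of induction (DoxEtop). Each of the 4 groups had 2 independent biological replicates, and all 8 libraries came from cells that carry the transgene. Cells without the transgene were not analysed here, so doxycycline and AIRE cannot be told apart, and the labels do not say whether the line is 1 clone. Total window counts per library ran from 4489871 to 8275911. Neighbouring windows of 150 bp start 50 bp apart, so they overlap and share fragments.

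AIRE, the autoimmune regulator, is known for switching on tissue-restricted genes in the medullary epithelium of the thymus, where their products purge self-reactive T cells. It is thought to work with factors that handle DNA breaks, among them topoisomerases and the Ku proteins. Etoposide traps topoisomerase II on DNA and leaves breaks behind. Chromosomes 20 and 22 are small and largely euchromatic, and chromosome 22 is acrocentric, with a short arm of repeated ribosomal and satellite DNA.

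The 2 chromosomes differed widely in how much open chromatin the table held. Chromosome 22 had 255 windows per Mb between its first and last window, the second densest of 23 chromosomes (all but Y). Chromosome 20 had 53.9 per Mb, the 15th, below the median of 71.7. Both are known as gene-dense. The RefSeq gene table of GRCh38.p14, used for counts only, placed 537 protein-coding genes on chromosome 20 and 451 on chromosome 22, which makes 6.29 and 19.2 windows per gene against a median of 13 over 23 chromosomes. Chromosome 20 thus ranked 18th and chromosome 22 ranked 3rd by windows per gene. Windows separated by 100 bp or less were merged into 587 regions on chromosome 20 and 1227 on chromosome 22, both with a median width of 350 bp, as in the table as a whole. Windows carry no gene names and hg19 gene models were not used, so every region is named by its hg19 position. The lists of genes drawn up for these chromosomes could therefore not be tested.

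On chromosome 20, 33.0% of the windows (1115) lay in the first 5 Mb. A further 537 lay between 30 and 35 Mb and 407 beyond 60 Mb, while the segments from 15 to 20 and from 20 to 25 Mb held 97 and 69. Chromosome 22 was more evenly filled. Its 8 segments of 5 Mb held 582 to 2008 windows, the most between 35 and 40 Mb. Regions wider than 1000 bp held 11% of the windows on chromosome 20 and 31.1% of those on chromosome 22, against 28.4% in the whole table.

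The strongest window of the whole table was on chromosome 20, in a region of 1950 bp from 26188701 to 26190650, near the centromere. The window starting at 26190051 had 778 and 627 counts (Control), 534 and 567 (Dox), 582 and 676 (Etop), and 912 and 1012 (DoxEtop). Its CPM, the count scaled to a common library total after TMM adjustment, averaged 127 over the 8 libraries. This was 15.1 times the level of the strongest window in any other region of chromosome 20. Of the 33 windows in the region, 12 were among the 25 strongest of the table and 19 among the 100 strongest. The next window on the chromosome lay 3900 kb further on.

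The mean level of that region was highest in 3 of the 4 libraries given etoposide. Its mean CPM per window was 27.8 and 25.6 (Control), 29.3 and 34.1 (Dox), 25.6 and 44.5 (Etop), and 48.7 and 58.4 (DoxEtop). Etop replicate 1 thus lay with the untreated libraries, and the other libraries given etoposide lay above all of those without it. The mean was 44.3 ± 13.8 CPM with etoposide and 29.2 ± 3.6 without (SD, n = 4 each). All 33 windows had a log2 fold change above 0 for etoposide, from 0.27 to 1.67 with a median of 0.58, and 31 had an unadjusted edgeR p under 0.05, yet none passed adjustment over the table (smallest edgeR adjusted p = 0.477). Without Etop replicate 1, 16 windows of chromosome 20 passed the adjustment, all 16 of them in this region and all higher. Etop replicate 1 was the library given etoposide that went against the pattern, so leaving it out favors such calls. With any other library left out, no window of the region passed. For AIRE induction, 5 of the 33 windows were called higher, with a log2 fold change at the strongest window of 0.48, edgeR adjusted p = 0.0192. The region held 6.79% to 13.1% of all counts on chromosome 20 in the 8 libraries. How reads that match several places in the genome were treated is not given in the sources used here, and its part in these levels was not tested.

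**Figure D1:**
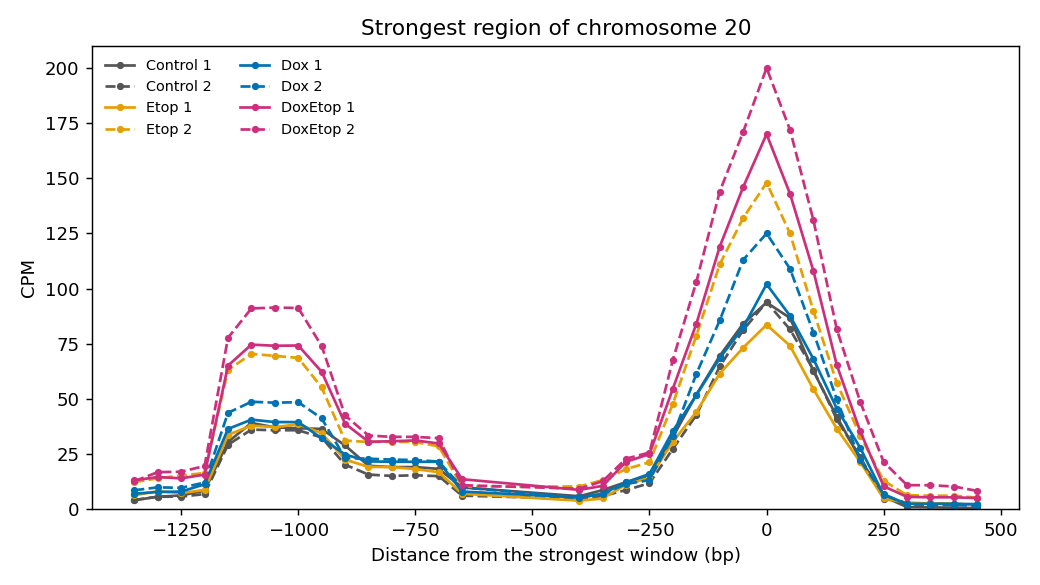
CPM (scaled counts) in each of the 33 windows of the strongest region of chromosome 20, against the distance in bp from its strongest window, with 1 line per library (solid for replicate 1, dashed for replicate 2). Both peaks are highest in DoxEtop replicates 1 and 2 and Etop replicate 2, and Etop replicate 1 runs with the Control libraries.

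No other region came near that level. The next strongest windows of chromosome 20, starting at 5100651, 3792451, 3869851 and 1305951, had means of 8.44, 8.32, 8.22 and 8.12 CPM. The 5 strongest regions of chromosome 22 had their top windows at 38577901, 20199651, 38857651, 39898201 and 38330051, with means of 11.5, 10.2, 10.2, 10 and 10 CPM. None of these 9 windows was called for AIRE induction (edgeR adjusted p = 0.125 to 0.906).

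AIRE induction was tested over all 8 libraries with etoposide as a second factor (edgeR's quasi-likelihood test, Benjamini-Hochberg adjusted p under 0.05 over all 256141 windows). On chromosome 20, 101 windows fell and 43 rose with induction. On chromosome 22, 426 fell and 109 rose. Called either way were 4.26% and 6.17%, against 7.44% of all windows. The shares called lower were 2.99% on chromosome 20 and 4.92% on chromosome 22, against 6.17% of all windows. The shares called higher were 1.27% and 1.26%, against 1.27% of all windows. Over 23 chromosomes, chromosome 20 ranked 18th and chromosome 22 ranked 12th by the share called lower. For higher calls, both stood at the background in this fit. The 4 induced libraries lay wholly below the 4 others in 4.29% of windows on chromosome 20 and 6.29% on chromosome 22 (7.49% of all), and wholly above them in 5% and 5.74% (4.98% of all). The plot of calls by chromosome shows that the 2 chromosomes differ in this fit in the share of lower calls and hardly in that of higher calls.

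**Figure D2:**
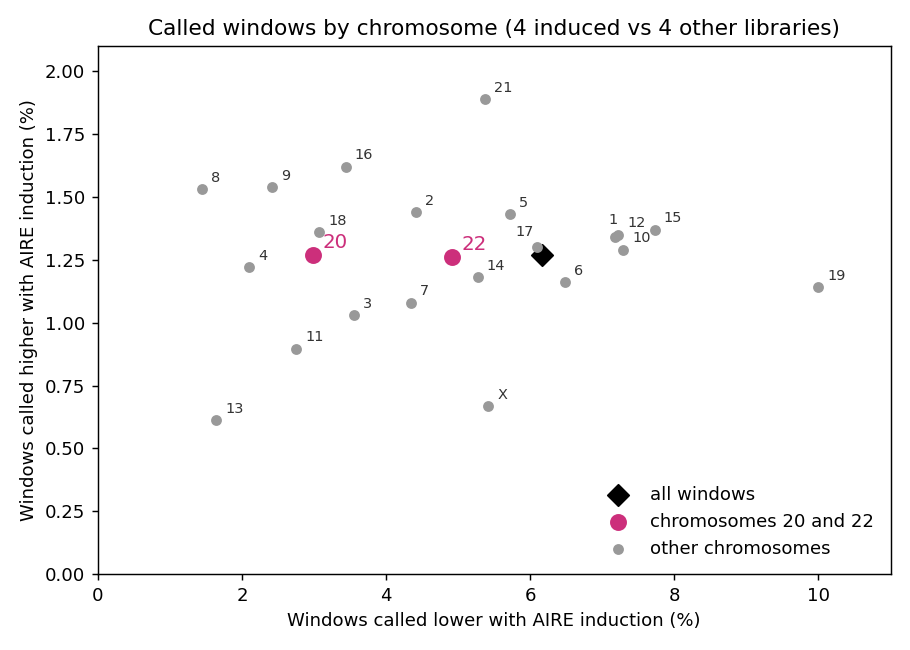
Percent of windows called lower (x axis) and higher (y axis) with AIRE induction on each of 23 chromosomes, 4 induced against 4 other libraries. Chromosomes 20 (2.99%, 1.27%) and 22 (4.92%, 1.26%) lie to the left of all windows together (black diamond, 6.17%, 1.27%), at the same height.

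The called windows were about as deep in their change as elsewhere. The median log2 fold change of windows called lower was -1.48 on both chromosomes, against -1.49 in the whole table, and of windows called higher 1.18 and 1.13, against 1.17. Over all their windows, called or not, the median was 0.15 on chromosome 20 and 0.06 on chromosome 22, against 0.04 in the whole table. Chromosome 20 ranked 3rd of 23 by this median, and 62% of its windows had a log2 fold change above 0, against 54% on chromosome 22 and 52.5% in all.

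As merged regions (Simes' p, adjusted over 35741 regions), 33 of 587 on chromosome 20 were lower and 10 higher, or 5.62% and 1.7%. On chromosome 22, 138 of 1227 were lower and 16 higher, or 11.2% and 1.3%. The background was 12.9% lower and 1.42% higher. The windows called lower lay in 43 regions on chromosome 20 and 180 on chromosome 22, and those called higher in 21 and 61. These are 7.33% and 14.7% of regions with a lower window, against 16.2% of all regions, and 3.58% and 4.97% with a higher one, against 4.58%. Losses and gains shared 2 regions on chromosome 20 and 1 on chromosome 22, against 218 of all 35741. Every window was lower in 14 of 587 regions on chromosome 20 and in 38 of 1227 on chromosome 22, against 1386 of 35741. On chromosome 20, the 10 regions with the most lower windows held 44.6% of them. On chromosome 22 the first 10 held 15.3%.

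These counts leaned on single libraries and on the tool, as did those of the whole table. On chromosome 20 the 144 calls became 54 when Control replicate 2 was left out, 66 with DoxEtop replicate 1 left out and 73 with Dox replicate 2 left out. On chromosome 22 the 535 calls became 192, 225 and 296 in the same order, and 352 with Etop replicate 1 left out. In the whole table, 15809 lower and 3253 higher calls became 6639 and 718, 8188 and 803, and 10495 and 1142 in that order. Without Etop replicate 1 they became 11324 and 1727. With loess offsets fitted along the mean log count, 52 windows of chromosome 20 were lower and 83 higher, the opposite balance, and 244 were lower and 141 higher on chromosome 22. The shares called higher were then 2.46% and 1.63%, against 1.7% of all windows, and those called lower 1.54% and 2.82%, against 3.98%. With limma-voom, 2 were lower and 19 higher on chromosome 20, and 5 and 4 on chromosome 22. The shares called higher were 0.562% and 0.0462%, against 0.0914% of all windows, and those called lower 0.0592% and 0.0577%, against 0.244%.

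The called windows named from here on have the smallest p of their region, a mean level above the table's median and arms that do not overlap, and are ordered by fold change among such windows alone. On chromosome 22, the lowest of them included 3 regions between 39 and 40 Mb. The region from 39919201 to 39919750 had all 9 of its windows lower. Its window at 39919451 had 24 and 32 counts (Control) and 77 and 33 (Etop), but 6 and 3 (Dox) and 1 and 2 (DoxEtop). The arms with and without induction did not overlap, and the Etop libraries were the highest. The mean fell from 6.49 ± 3.52 to 0.597 ± 0.413 CPM (SD, n = 4 each). The log2 fold change was -3.31 (SE 0.469) at an edgeR adjusted p of 2.04e-06. Before it on the chromosome, the window at 39886251 had 54 and 63 counts (Control), 97 and 23 (Etop), 11 and 7 (Dox) and 5 and 4 (DoxEtop). It fell from 8.73 ± 3.92 to 1.34 ± 0.601 CPM, 6.51-fold by the fitted log2 fold change of -2.70 (SE 0.359, edgeR adjusted p = 7.01e-07), and all 5 windows of its region of 350 bp (39886151 to 39886500) were lower. The window at 39320001 (region 39319801 to 39320150) had 33 and 63 counts (Control), 62 and 19 (Etop), 9 and 5 (Dox) and 0 and 6 (DoxEtop), with log2 fold change -2.73 (SE 0.435, edgeR adjusted p = 1.56e-05).

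The other 3 of these 6 lay elsewhere on the chromosome. The window at 29641651 (region 29641351 to 29641850) had 27 and 57 counts (Control), 50 and 22 (Etop), 5 and 5 (Dox) and 3 and 7 (DoxEtop), with a log2 fold change of -2.56. At 19467201 (region 19467151 to 19467850) it was -2.21, from 7.11 ± 2.05 to 1.54 ± 0.47 CPM, and 5 of the 12 windows were lower. At 41864601, in a wide region of 1300 bp from 41864301 to 41865600, it was -2.20, from 7.49 ± 2.86 to 1.62 ± 0.355 CPM, and 6 of 24 windows were lower. All 6 of these windows kept an edgeR adjusted p under 0.05 when any 1 library was left out. Under limma-voom none of the 6 passed (adjusted p = 0.179 to 0.345). With loess offsets along the mean log count the window at 39919451 no longer passed (log2 fold change -1.39, edgeR adjusted p = 0.0734), and the value at 39320001 was -1.42 (edgeR adjusted p = 0.0314).

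Losses on chromosome 20 were fewer. Its lowest named window, at 45318301 in the region from 45317901 to 45318500, had 44 and 51 counts (Control), 32 and 25 (Etop), 5 and 6 (Dox) and 12 and 5 (DoxEtop). The 4 induced libraries lay below the 4 others. The mean fell from 5.75 ± 1.31 to 1.38 ± 0.599 CPM (SD, n = 4 each). The log2 fold change was -2.03 (SE 0.385) at an edgeR adjusted p of 0.000236. In its region 6 of 10 windows were called. At 719801, in the region from 719651 to 720000, the counts were 29 and 46 (Control), 51 and 24 (Etop), 11 and 8 (Dox) and 9 and 8 (DoxEtop). All 5 windows of that region were lower, with a log2 fold change at 719801 of -1.67 (SE 0.363), edgeR adjusted p = 0.0014. Both windows kept their call when any 1 library was left out, and neither had it under limma-voom (adjusted p = 0.252 and 0.219).

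The remaining 4 windows named as lower on chromosome 20, at 60957851, 61336001, 62496351 and 50721801, had log2 fold changes of -1.26, -1.24, -1.20 and -1.09 (edgeR adjusted p = 0.00908 to 0.0481). They were less firm. The call at 50721801 was lost without any 1 of 7 libraries and under DESeq2 (adjusted p = 0.0556), that at 60957851 without Control replicate 1, Dox replicate 2, Etop replicate 2 or DoxEtop replicate 1, that at 62496351 without Control replicate 2 or Dox replicate 2, and that at 61336001 without DoxEtop replicate 1.

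Of the gains named on chromosome 20, the highest 2 lay in its first 5 Mb. The window at 3730501 (region 3730351 to 3730900) had 32 and 17 counts (Control) and 9 and 10 (Etop), against 32 and 28 (Dox) and 40 and 41 (DoxEtop). Since Control replicate 1 has the largest total, its 32 counts were 3.85 CPM, and the induced libraries ran from 6.1 to 8.11 CPM. The mean rose from 2.47 ± 1.06 to 6.96 ± 0.988 CPM (SD, n = 4 each). The log2 fold change was 1.49 (SE 0.324) at an edgeR adjusted p of 0.00139, and 5 of the 9 windows in its region were called higher. At 1783101 (region 1782951 to 1783350), the counts were 24 and 17 (Control), 17 and 15 (Etop), 31 and 27 (Dox) and 36 and 40 (DoxEtop). The mean rose from 2.79 ± 0.383 to 6.62 ± 0.935 CPM, with log2 fold change 1.24 (SE 0.306, edgeR adjusted p = 0.00568), and 5 of 6 windows were called. These 2 windows kept their call under every alternative run, limma-voom included.

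The other 4 gains of chromosome 20, at 60961901, 43104451, 62610251 and 62258501, had log2 fold changes of 1.19, 1.15, 1.04 and 1.04 (edgeR adjusted p = 0.018 to 0.0462). Each lost its call when Control replicate 2, Dox replicate 2, Etop replicate 1 or DoxEtop replicate 1 was left out, and that at 62610251 when any 1 library was. The loss at 60957851 and the gain at 60961901 were near neighbours.

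Gains on chromosome 22 had log2 fold changes of 1.24 to 1.47 among the 6 named. The window at 42666151 (region 42665401 to 42666350) had 11 and 9 counts (Control), 17 and 11 (Etop), 17 and 20 (Dox) and 31 and 38 (DoxEtop). Both DoxEtop libraries were well above the rest, while Dox replicate 1 matched Etop replicate 1 in counts and was above it after scaling. The mean rose from 1.88 ± 0.629 to 5.24 ± 1.84 CPM (SD, n = 4 each). The log2 fold change was 1.47 (SE 0.362) at an edgeR adjusted p of 0.00561 (limma-voom, 0.0896). At 39548851 (region 39548451 to 39549350), the counts were 24 and 18 (Control), 13 and 12 (Etop), 31 and 33 (Dox) and 28 and 35 (DoxEtop), with log2 fold change 1.33 (SE 0.319, edgeR adjusted p = 0.00421) that kept its call under every alternative run. This gain lay between the losses at 39320001 and 39886251. The windows at 19279101, 42353901, 43410901 and 50946701 had log2 fold changes of 1.37, 1.28, 1.28 and 1.24. Leaving out 1 library ended each of these calls: DoxEtop replicate 1 for 19279101, Dox replicate 1 for 42353901, either Control, either Dox or DoxEtop replicate 2 for 43410901, and Control replicate 1 or either Dox for 50946701.

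**Figure D3:**
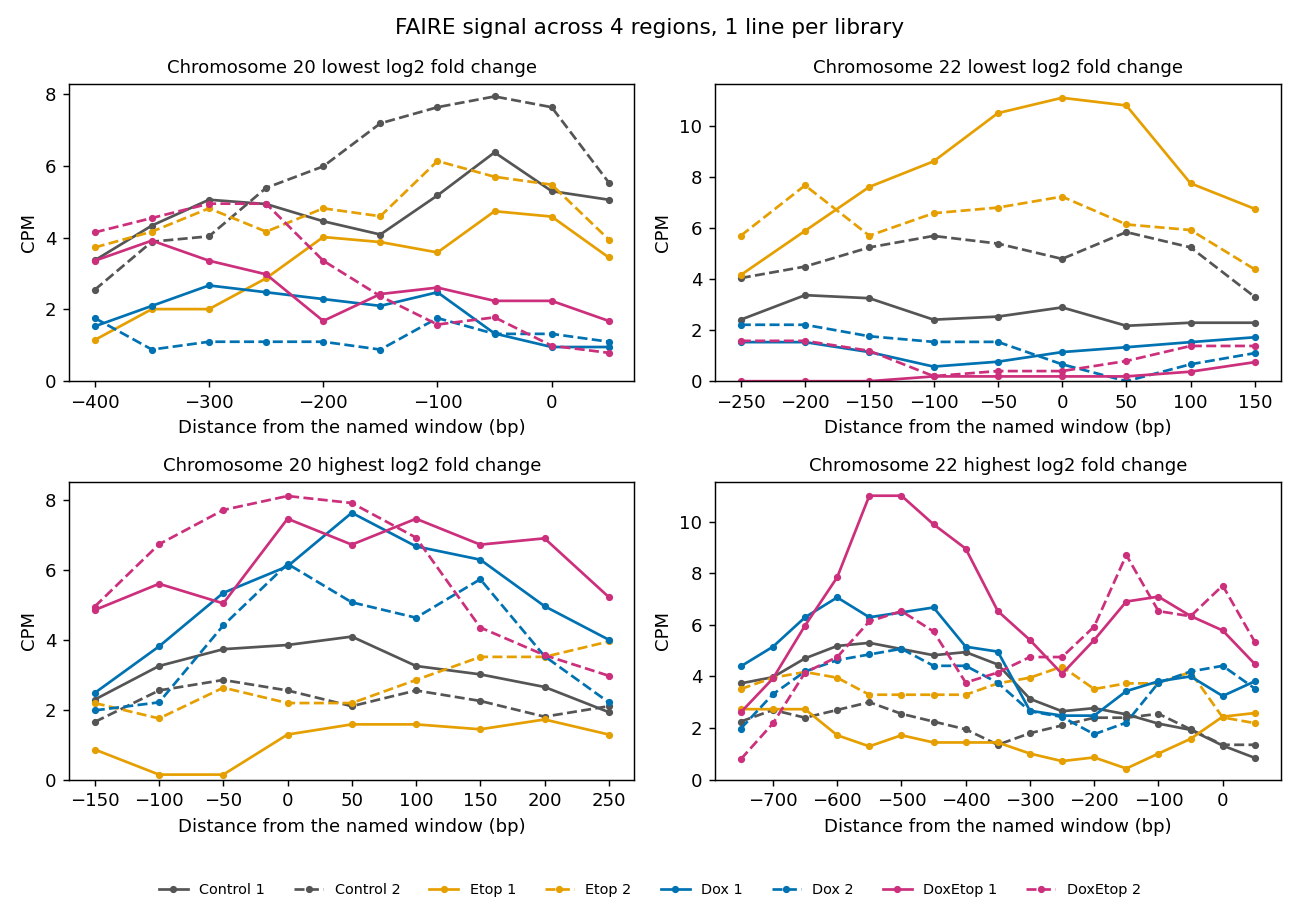
CPM in each window of the regions that hold the lowest and the highest named window of each chromosome for AIRE induction, against the distance in bp from that window, with 1 line per library (solid for replicate 1, dashed for replicate 2). At distance 0 the 4 induced libraries (blue, pink) lie below the others in the upper panels and above them in the lower panels. The named windows were picked for arms that do not overlap, which fixed this order.

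Along the chromosomes, lower calls on chromosome 22 were most frequent between 25 and 30 Mb and between 35 and 45 Mb. Over all windows of the table, 6.17% were lower. Between 25 and 30 Mb, 51 of 582 windows (8.76%) were lower and 4 higher. The segment from 30 to 35 Mb had fewer, with 37 of 802 (4.61%) lower and 4 higher. Between 35 and 40 Mb, 161 of 2008 (8.02%) were lower and 18 higher, in 74 and 10 regions. Between 40 and 45 Mb, 97 of 1484 (6.54%) were lower and 15 higher. The ends differed. Beyond 50 Mb, 5 of 779 (0.642%) were lower and 17 (2.18%) higher, the only segment of chromosome 22 with more gains than losses. The first segment had 17 lower and 15 higher of 809. The median log2 fold change of all windows ran from -0.05 between 35 and 40 Mb to 0.24 beyond 50 Mb. Beyond 50 Mb the median log2 level, relative to each window's mean over the 8 libraries, was 0.079 and 0.141 (Dox) and 0.202 and 0.138 (DoxEtop), against -0.062 and -0.133 (Control) and -0.051 and -0.036 (Etop). The arms did not overlap there, nor between 45 and 50 Mb.

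Within chromosome 22, 1 Mb steps showed the losses to be spread over many regions. From 36 to 37 Mb, 34 of 312 windows (10.9%) in 18 regions were lower and 3 higher. From 38 to 39 Mb, 48 of 695 in 21 regions were lower, and from 39 to 40 Mb, 42 of 557 in 19 regions. A high share, 28.9% from 27 to 28 Mb, rested on 13 of only 45 windows in 2 regions. These steps were chosen after the values were seen.

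Chromosome 20 had more lower than higher calls in 5 of its 13 segments, but all 13 had a median log2 fold change above 0. The first 5 Mb held 45 of its 101 lower windows, in 17 regions, and 17 of its 43 higher ones. Between 45 and 50 Mb, 17 of 279 windows (6.09%) were lower and 1 higher. Beyond 60 Mb, 9 were lower and 10 higher of 407, and the median levels were 0.077 and 0.066 (Dox) and 0.207 and 0.216 (DoxEtop), against -0.029 and -0.129 (Control) and 0.008 and -0.147 (Etop). The arms did not overlap. The last segment of both chromosomes thus had induced libraries above the others at the median. So did the 107 windows of chromosome 20 between 5 and 10 Mb. Median levels there were 0.178 and 0.17 (Dox) and 0.131 and 0.247 (DoxEtop). Against these stood 0.094 and -0.092 (Control) and -0.204 and -0.307 (Etop).

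**Figure D4:**
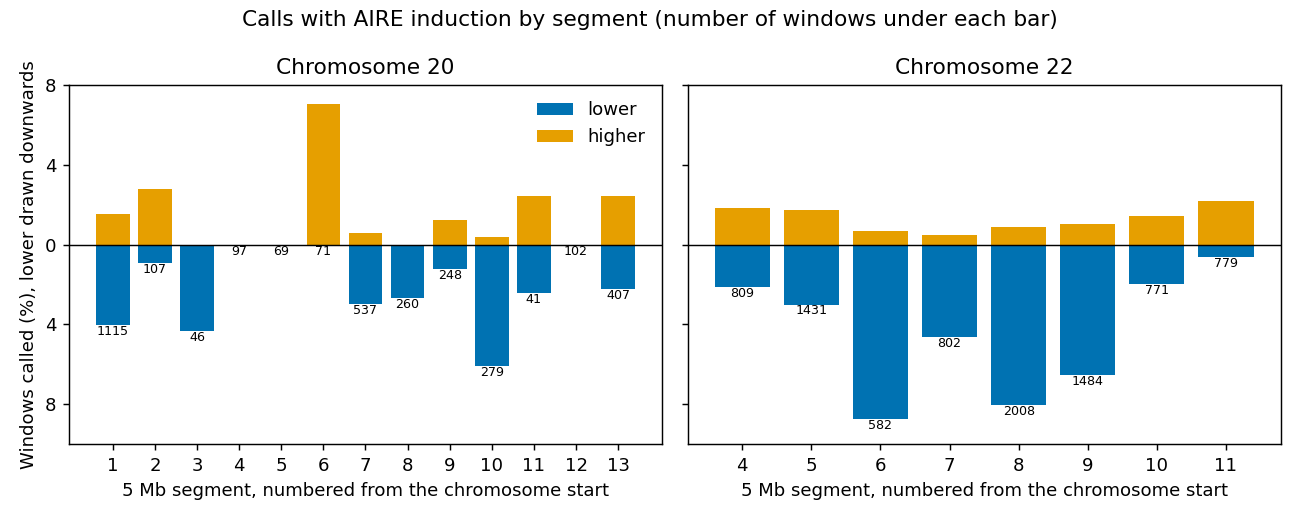
Percent of windows called higher (orange, upwards) and lower (blue, downwards) with AIRE induction in each 5 Mb segment, numbered from the start of the chromosome, with the number of windows under each bar. Lower calls reach 8.76% and 8.02% in segments 6 and 8 of chromosome 22, and the 7.04% higher in segment 6 of chromosome 20 comes from 1 region.

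Lower calls on chromosome 22 became rarer with region width, from 9.83% of windows in regions of up to 300 bp through 6.39% and 3.73% to 2.89% in regions over 1000 bp. In the whole table the same classes had 9.93%, 7.27%, 4.92% and 4.97%. On chromosome 20 they were 5.5%, 2.4%, 3% and 0.27%, the last being 1 of 371 windows. The median log2 fold change in regions of up to 300 bp was -0.24 on chromosome 22 and -0.23 in the whole table, but 0.02 on chromosome 20. Among windows in the strongest 20% of the table by mean CPM (4.7 CPM and above), 8 of 464 were lower and 14 higher on chromosome 20 (1.72% and 3.02%). Of those 14 higher windows, 5 lay in 1 region, the strongest of the chromosome. On chromosome 22, 57 of 1805 were lower and 50 higher (3.16% and 2.77%). In the whole table the shares were 5.35% and 2.08%. The table holds no window with fewer than 111 counts over the 8 libraries. The part of that limit in region width and level was not tested.

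As a share of each library, chromosome 20 took 1.324% and 1.191% of the window counts (Control), 1.213% and 1.314% (Etop), 1.335% and 1.358% (Dox) and 1.421% and 1.477% (DoxEtop). All 4 induced libraries were above all 4 others, at 1.4% ± 0.0641 against 1.26% ± 0.0684 (SD, n = 4 each), although Control replicate 1 was only just below Dox replicate 1. Over 23 chromosomes, 6 had induced libraries wholly above and 4 wholly below. Without the strongest region the arms still did not overlap, at 1.26% ± 0.0211 and 1.16% ± 0.0545, with 1.234% for Control replicate 1 and 1.238% for Dox replicate 1. By the median log2 level per window the order was not complete, since Control replicate 1 (0.058) was above Dox replicate 1 (0.047). The highest of the 8 were DoxEtop replicates 2 and 1 (0.139 and 0.09), and the lowest was Control replicate 2 (-0.095).

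Chromosome 22 was ordered by etoposide. It took 3.249% and 3.192% of the counts (Control), 3.31% and 3.326% (Dox), 3.403% and 3.412% (Etop) and 3.523% and 3.454% (DoxEtop). All 4 libraries given etoposide were above all 4 without it, at 3.45% ± 0.0547 against 3.27% ± 0.0613 (SD, n = 4 each), with no overlap when chromosome 19 was left out of the totals either. Of 23 chromosomes, 2 (17 and 22) had etoposide libraries wholly above the others and 1 (X) wholly below. The median log2 level per window differed by 0.0677, the largest etoposide difference of the 23. It was 0.034 and 0.059 (Etop) and 0.089 and 0.074 (DoxEtop), against 0 and -0.031 (Control) and 0.007 and 0.009 (Dox). The size of these shifts is small, and no test was made of a median over windows chosen as a set.

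**Figure D5:**
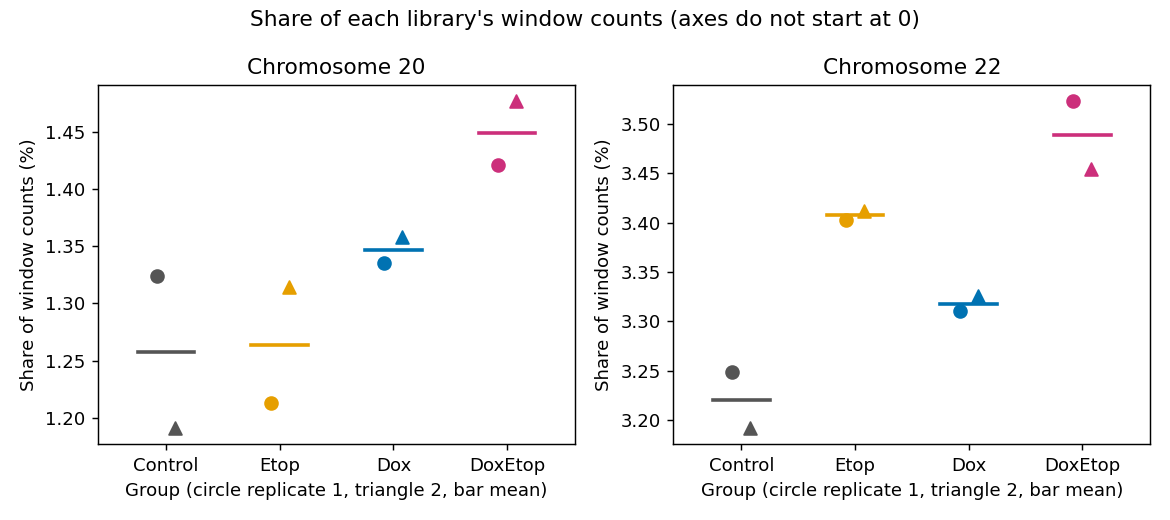
Share of each library's window counts that lies on chromosome 20 (left) and chromosome 22 (right), in percent, by group, with circles for replicate 1, triangles for replicate 2 and bars for the mean of the 2. On chromosome 20 the Dox and DoxEtop libraries lie above the rest, and on chromosome 22 the Etop and DoxEtop libraries do (3.403% and above, against 3.326% and below).

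The etoposide comparison called no window on either chromosome, nor in the table as a whole (0% of windows by edgeR), with etoposide tested over 8 libraries and AIRE induction as a second factor. At an unadjusted p under 0.05, 80 windows of chromosome 20 were lower and 116 higher (2.37% and 3.43%), and 120 of chromosome 22 were lower and 394 higher (1.38% and 4.55%). Over all windows, 7153 were lower and 7784 higher (2.79% and 3.04%). DESeq2 and limma-voom called 0 on both chromosomes, and DESeq2 called 2 lower and 1 higher in the whole table. On chromosome 22, 58.7% of windows had a log2 fold change above 0, against 50% in the table, and the median was above 0 in all 8 of its segments. It was only 0.0079 from 30 to 35 Mb. By the median level per segment, libraries with and without etoposide were apart in 2 of the 8, from 35 to 40 and from 40 to 45 Mb. The libraries with and without etoposide did not overlap in 136 windows that were higher and 58 that were lower on chromosome 22 (1.57% and 0.669%, against 1.3% and 1.29% in the table). On chromosome 20 there were 46 and 45 such windows (1.36% and 1.33%).

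The smallest p on chromosome 22 was at 40030901 (region 40030851 to 40031100), with 10 and 15 counts (Control), 65 and 23 (Etop), 1 and 1 (Dox) and 4 and 9 (DoxEtop). It had a log2 fold change of 2.17 for etoposide (SE 0.474, edgeR adjusted p = 0.477), and the same window was lower with AIRE induction (-2.62, edgeR adjusted p = 0.000212). The windows at 17602201 and 37171701 followed, with 1.59 and 1.58, and the arms did not overlap in either. On chromosome 20 the 3 smallest were at 26188901, in the strongest region (0.76), at 42875801 (1.71) and at 62580451 (1.08). At 62580451 the counts were 26 and 14 (Control), 18 and 11 (Dox), 29 and 30 (Etop) and 39 and 31 (DoxEtop).

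AIRE induction without etoposide (Dox vs Control) called 14 windows lower and 0 higher on chromosome 20, and 45 lower and 2 higher on chromosome 22. These are 0.414% and 0.519% lower, against 0.848% of all windows, and 0% and 0.0231% higher, against 0.0156% (0.864% either way). As merged regions, 8 were lower on chromosome 20 and 16 on chromosome 22, or 1.36% and 1.3% against 1.84%, and 0 were higher on both, against 0.0168%. At 45318251 on chromosome 20 the counts were 53 and 53 (Control) and 7 and 6 (Dox), 7.16 ± 1.1 against 1.33 ± 0.00826 CPM (SD, n = 2 each), with log2 fold change -2.41 (SE 0.514, edgeR adjusted p = 0.00967). On chromosome 22 the windows named were at 29641651 (-2.48), 39320001 (-2.20) and 39886251 (-2.10), with edgeR adjusted p of 0.0242, 0.0462 and 0.0177. The median over all windows called lower was -2.74 on chromosome 20 and -2.48 on chromosome 22, so calls that are not named lay lower. The higher windows were at 19109751, with 11 and 7 counts (Control) and 26 and 24 (Dox) (2.08, edgeR adjusted p = 0.0308), and at 22011701, with 38 and 15 against 44 and 48 (1.44, edgeR adjusted p = 0.0435). The calls on both chromosomes were lost without Control replicate 2, Dox replicate 1 or Dox replicate 2, as were those of the whole table. The lone library left in a group is then assumed to vary like the others. Without Control replicate 1 the calls rose on both chromosomes and in the whole table. They also rose on both and in the whole table when either Etop library was left out. DESeq2 called 1 on each chromosome and limma-voom 0, against 258 and 5 in the whole table, all lower. With loess offsets along the mean log count, 3 were lower and 1 higher on chromosome 20, and 10 and 2 on chromosome 22. These are 0.0888% and 0.115% lower and 0.0296% and 0.0231% higher, against 0.301% and 0.0269% of all windows. With the replicate number as a block, 30 were called on chromosome 22, against 1541 lower and 15 higher in the whole table.

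AIRE induction with etoposide (DoxEtop vs Etop) called 31 windows lower and 21 higher on chromosome 20, and 162 lower and 48 higher on chromosome 22. These are 0.917% and 1.87% lower, against 2.43% of all windows, and 0.621% and 0.554% higher, against 0.45% (2.88% either way). As merged regions, 13 were lower and 7 higher on chromosome 20 (2.21% and 1.19%), and 53 and 7 on chromosome 22 (4.32% and 0.57%), against 5.36% and 0.613%. By the share of windows called higher, chromosome 20 was first of 23 chromosomes and chromosome 22 was 4th, but these gains leaned on single libraries. At 39919451 on chromosome 22 the 77 and 33 counts (Etop) stood against 1 and 2 (DoxEtop), with log2 fold change -4.90 (SE 0.685, edgeR adjusted p = 5.38e-05). The other 2 named were at 39320001 (-3.48) and 39886251 (-3.46). On chromosome 20 the lowest named was at 61422851 (region 61422801 to 61423100), with 32 and 30 counts (Etop) and 2 and 4 (DoxEtop), with log2 fold change -3.21 (SE 0.693, edgeR adjusted p = 0.00493). Its Dox libraries had 22 and 3 counts against 27 and 48 (Control). The windows at 48732501 and 719801 had -1.95 each, against medians of -2.43 and -2.39 over all windows called lower on chromosomes 20 and 22.

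Among the gains named in this comparison, the highest on chromosome 20 was at 31045401 (region 31045251 to 31045600), with 3 and 9 counts (Etop) and 30 and 29 (DoxEtop), with log2 fold change 2.35 (SE 0.595, edgeR adjusted p = 0.0181). Its Control libraries, at 31 and 13 counts, were above the Etop libraries. The windows named with it were at 3730501 (2.20) and 443001 (1.86), and the median over all 21 windows called higher was 2.08. On chromosome 22 those named were at 22089901 (2.02), 42665601 (1.98) and 32149851 (1.92). At 32149851 the counts were 19 and 12 (Etop) and 66 and 41 (DoxEtop), but 63 and 28 (Control) and 24 and 35 (Dox), and the change without etoposide was 0.04. Without DoxEtop replicate 1, hardly any window was called on either chromosome or in the whole table. Fewer were also called without Etop replicate 1, and on chromosome 20 without DoxEtop replicate 2, while more were called without Etop replicate 2. The whole table, too, had fewer calls without Etop replicate 1 or DoxEtop replicate 2 and more without Etop replicate 2. Hardly any of the calls left without Etop replicate 1 or DoxEtop replicate 1 were higher. The lone library left in a group is then assumed to vary like the others. Of the 12 windows named for this comparison, that at 39919451 kept its call when any 1 library was left out, and each of the others lost it without Etop replicate 1 or DoxEtop replicate 1. DESeq2 called 13 and 81, and limma-voom 10 (all higher) and 0. In the whole table DESeq2 called 193 higher and 2062 lower, and limma-voom 13 higher and 14 lower. With loess offsets along the mean log count, 12 were lower and 35 higher on chromosome 20 (0.355% and 1.04%), and 83 and 67 on chromosome 22 (0.958% and 0.773%), against 1.25% and 0.69% of all windows.

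Dox vs Control and DoxEtop vs Etop use no library in common. Their log2 fold changes had the same sign at 65.2% of windows on chromosome 20 and 67.6% on chromosome 22, against 67.3% in the table. Pearson's r of the log2 fold changes was 0.459 and 0.53, and Spearman's rho 0.393 and 0.476, across 3379 and 8666 windows that overlap and come from the same libraries. In the whole table they were 0.547 and 0.483. On chromosome 22, 26 windows were lower in both, or 57.8% of those called without etoposide and 16% of those called with it. On chromosome 20, 4 were, or 28.6% and 12.9%. Over all windows, 1252 were, or 57.6% and 20.1%, so the shares on chromosome 22 were near or below the background.

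The interaction, which tests whether the change with AIRE induction differs with etoposide, called no window on either chromosome or in the table (0% by edgeR, smallest edgeR adjusted p = 1). At an unadjusted p under 0.05 it had 113 windows on chromosome 20 and 346 on chromosome 22, or 3.34% and 3.99%, against 4.14% of all windows, and DESeq2 and limma-voom called 0. The differences in counts between Dox vs Control and DoxEtop vs Etop are thus not shown to be differences in effect.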

How the data were processed

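FAIRE-seq DNA from formaldehyde-fixed cells was made into libraries and read as 100 bp pairs, per the labels' protocols. Trim Galore, Bowtie2, Bowtie and hg19 are named in the submitters' processing notes. The role of each aligner, the choice and counting of windows and any use of input are steps not given in the sources used here, and input was not analysed here. The deposited values are raw counts, with 8 libraries as columns and windows of 150 bp at 50 bp steps as rows. CPM values were computed here. Each window had at least 111 counts over the 8 libraries. Totals are sums over overlapping windows, not library depths. The last window of chromosome 22 lies beyond the last protein-coding gene of the GRCh38.p14 table, so no coordinates of that table were used.

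All windows were fitted with edgeR 4.0.16 (R 4.3.3): TMM scaling on column totals, glmQLFit and glmQLFTest, Benjamini-Hochberg over 256141 windows at 0.05. filterByExpr removed 0. Main effects used an additive model (5 residual degrees of freedom), the other comparisons 1 mean per group (4). The common biological coefficient of variation was 26.4%. Log2 CPM used a prior count of 2. Named windows are the smallest-p window per region, called, above the table's median level and without overlap of the arms, ranked by fold change: 6 each way for AIRE induction, 3 for the other comparisons, or the 3 smallest p where nothing was called, and the 5 strongest regions. Alternatives were RLE factors, loess offsets, DESeq2 1.42.0, limma-voom 3.58.1, a summed count of at least 200, a replicate block, a merge gap of 500 bp and leaving out each library. In counts simulated for 256141 windows, the AIRE test called 81 of 100 windows changed 4-fold and 5 of 100 changed 2-fold, and Dox vs Control called 23 and 0. Same-numbered replicates deviated together with r of -0.0732 to 0.12, so no strong shift shared by number was seen. Whether the numbers pair the samples is not settled by this, and the main fits used no block. The members and the lists were chosen with earlier results of these data known.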

Additional observations from a re-analysis of the deposited data

Results flagged for a closer look

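The median log2 level of chromosome 20 in Control replicate 2 was -0.095, apart from the other 3 libraries without etoposide, which lay between 0.047 and 0.061. Chance flags about 1 in 20 sets of 4 in this way.

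At 3 named windows both libraries moved one way with AIRE induction in cells without etoposide and the opposite way in cells with it. They were picked for small interaction p, and the edgeR interaction did not pass adjustment at any of them (adjusted p = 1). At 19109751 on chromosome 22 the difference of the log2 fold changes was -2.52, with 11 and 7 counts (Control), 26 and 24 (Dox), 34 and 27 (Etop) and 21 and 20 (DoxEtop). At 19164301 on chromosome 22 it was 3.05, with 39 and 21 counts (Control), 15 and 9 (Dox), 5 and 3 (Etop) and 18 and 20 (DoxEtop). At 55926251 on chromosome 20 it was 2.43, with 44 and 37 counts (Control), 10 and 11 (Dox), 9 and 14 (Etop) and 24 and 23 (DoxEtop).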

How the results depend on the processing

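None of the 54 results for named windows changed direction under the alternatives run. The called ones were picked for arms that do not overlap, so leaving out 1 library could hardly reverse them. In 161 of 772 cases a call was lost, 39 of them under limma-voom and 13 under DESeq2. The 772 cases include 6 etoposide and 6 interaction results, which had no call to lose. Limma-voom kept 3 of 24 calls for AIRE induction and lost all 6 for Dox vs Control and all 12 for DoxEtop vs Etop. With a summed count of at least 200, only 69059 windows were tested. Of all these the AIRE main effect called 5248 lower and 1009 higher, Dox vs Control 1075 and 26, and DoxEtop vs Etop 2374 and 433. The AIRE main effect then called 31 windows on chromosome 20 and 170 on chromosome 22, Dox vs Control 4 and 16, and DoxEtop vs Etop 9 and 79. With limma-voom these were 21 and 9, 0 and 0, and 10 and 0. With DESeq2, Dox vs Control called 1 and 1 and DoxEtop vs Etop 13 and 81. With loess offsets on the mean log count, Dox vs Control called 4 and 12. Offsets along average abundance, chosen after seeing the data, moved no count by over 1.5 times. The cause was not tested. With the replicate block, the etoposide main effect called 2 windows on chromosome 20, both in its strongest region, and Dox vs Control called 30 on chromosome 22. The block moved no other count by over 1.5 times. It ended 5 calls of named windows, those for AIRE induction at 50721801, 60961901 and 62610251 and those for Dox vs Control at 39320001 and 22011701, and no other.

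Leaving out 1 library, the AIRE main effect called 54 to 200 windows on chromosome 20 and 192 to 687 on chromosome 22, Dox vs Control 0 to 26 and 0 to 81, DoxEtop vs Etop 1 to 141 and 6 to 483, and the etoposide main effect 0 to 16 and 0 to 0. The counts of the whole table moved with the library left out as well. The induced share of counts on chromosome 20 exceeded the other by 0.111 to 0.158 percentage points, and the etoposide share on chromosome 22 by 0.153 to 0.198. These arms do not overlap with all libraries in, so leaving 1 out could not make them overlap. RLE factors and a merge gap of 500 bp moved no count by over 1.5 times. In the simulated counts, 2-fold changes were mostly not called. Only 100 windows changed 2-fold and 100 changed 4-fold there, at 1 common spread. In the data 7.44% of windows were called for AIRE induction, so the share of 2-fold changes found can differ.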
